A study of Mus musculus with 4 samples.

Results

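The 35 genes described here encode the protein-folding machinery of the endoplasmic reticulum (ER) and the unfolded protein response that adjusts it. They were taken by symbol from a list of names, drawn up with earlier results of these data known, and all 35 are among the 24452 genes of the deposited table. Tregs, regulatory CD4 T cells that depend on the transcription factor Foxp3 and hold immune responses in check, came from the livers of young mice labelled Altre-WT or Altre-KO, with 2 RNA-sequencing libraries per genotype. Altre is a long non-coding RNA of Tregs, and the comparison asks which transcripts depend on it in the young liver. The labels give no strain, sex or exact age, nor how Altre was deleted, in which cells, or how the Tregs were isolated. They leave unsaid if each library stands for its own animal, so the p-values measure only the spread between these libraries, which may be technical. The Altre transcript itself was not analysed here, and the genotype labels were taken as given.

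Proteins bound for the cell surface or for secretion enter the ER through the Sec61 channel, fold with the help of chaperones and disulfide isomerases, and leave in vesicles that carry cargo receptors. Chains that fail to fold are trimmed, pulled back to the cytosol and degraded, a route called ER-associated degradation. When unfolded chains build up, the sensors Ire1, Perk and Atf6 slow translation and switch on genes for more folding and degradation capacity. T cells raise this system when they are activated, as they then make surface receptors and cytokines in quantity.

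Promoters of some of these genes hold short elements through which Atf6 and Xbp1 are known to act. RefSeq promoter sequences, from 250 bases before to 50 bases after a start site, could be matched by symbol for 29 of the 35 genes. Each was searched on both strands for the ER stress element (ERSE), spelled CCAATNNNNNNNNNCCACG. The ERSE was found in 8 of the 29 genes (27.6%), against 37 of 27025 genes in the whole promoter table (0.137%). A shorter form, ERSE-II (ATTGGNCCACG), was found in 2 of the 29 (6.90%), HERPUD1 and DNAJB11, against 12 of all genes (0.0444%). The core TGACGTG, bound by Xbp1 and Atf6, was found in 1 of the 29 (3.45%), HSPA5, against 601 of all genes (2.22%). The 35 genes were listed by name for this pathway, so higher shares than over all genes describe the list and test nothing. ERSE-II shares CCACG and the reverse complement of CCAAT with the ERSE, and no gene of the set had both. The ERSE matches, the ERSE-II of HERPUD1 and the core of HSPA5 are printed below on the gene's own strand, in GRCm38.p6 coordinates, with the match in capitals and 5 bases on each side. They are shown because the genes with and without an ERSE are compared below. The ERSE-II of DNAJB11 lies after the start site and is not printed. Where the capitals begin with CGTGG, the element lies in reverse. A match describes the letters only and shows no binding.
HSPA5, chr2:34772020-34772048, plus strand: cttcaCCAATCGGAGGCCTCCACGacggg
HSP90B1, chr10:86705633-86705661, minus strand: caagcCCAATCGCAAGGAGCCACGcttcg
HSP90B1, chr10:86705528-86705556, minus strand: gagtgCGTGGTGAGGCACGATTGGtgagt
CALR, chr8:84847070-84847098, minus strand: caacgCGTGGTCGACCCTCATTGGcccat
CANX, chr11:50325795-50325823, minus strand: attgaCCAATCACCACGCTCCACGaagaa
CRELD2, chr15:88819515-88819543, plus strand: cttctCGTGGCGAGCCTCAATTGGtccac
DNAJC3, chr14:118937822-118937850, plus strand: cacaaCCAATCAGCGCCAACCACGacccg
PDIA6, chr12:17266486-17266514, plus strand: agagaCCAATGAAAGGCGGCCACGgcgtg
SYVN1, chr19:6046527-6046555, plus strand: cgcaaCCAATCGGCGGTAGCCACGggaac
HERPUD1 (ERSE-II), chr8:94386372-94386392, plus strand: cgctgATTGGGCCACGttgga
HSPA5 (TGACGTG core), chr2:34771928-34771944, plus strand: agcaaTGACGTGagttg

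Transcripts of this machinery were present in all 4 libraries. Levels are given in CPM, reads scaled so that the listed genes of each library sum to the same total. The lowest value of any of the 35 was 6.43 CPM, of ERN1 in Altre-KO replicate 1, and the highest was 870.1 CPM, of HSPA5 in the same library. All 35 therefore passed the filter on low values, 4.22 CPM in at least 2 libraries, which 10486 genes passed in all. Between 1828773 and 3266133 estimated reads per library lay on listed genes, which was 18.8% and 20.6% of all reads in Altre-WT and 32.8% and 21.5% in Altre-KO. A single read was worth 0.306 to 0.547 CPM. Of 8 Treg markers 7 were listed, with summed levels of 2688 to 2840 CPM. FOXP3 was at 160.4 and 140.5 CPM in Altre-WT and at 79.5 and 162 CPM in Altre-KO. Hepatocyte markers summed to at most 1.69 CPM, with ALB, APOA2, TTR, FGB and CYP3A11 at 0 in every library.

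**Figure D1:**
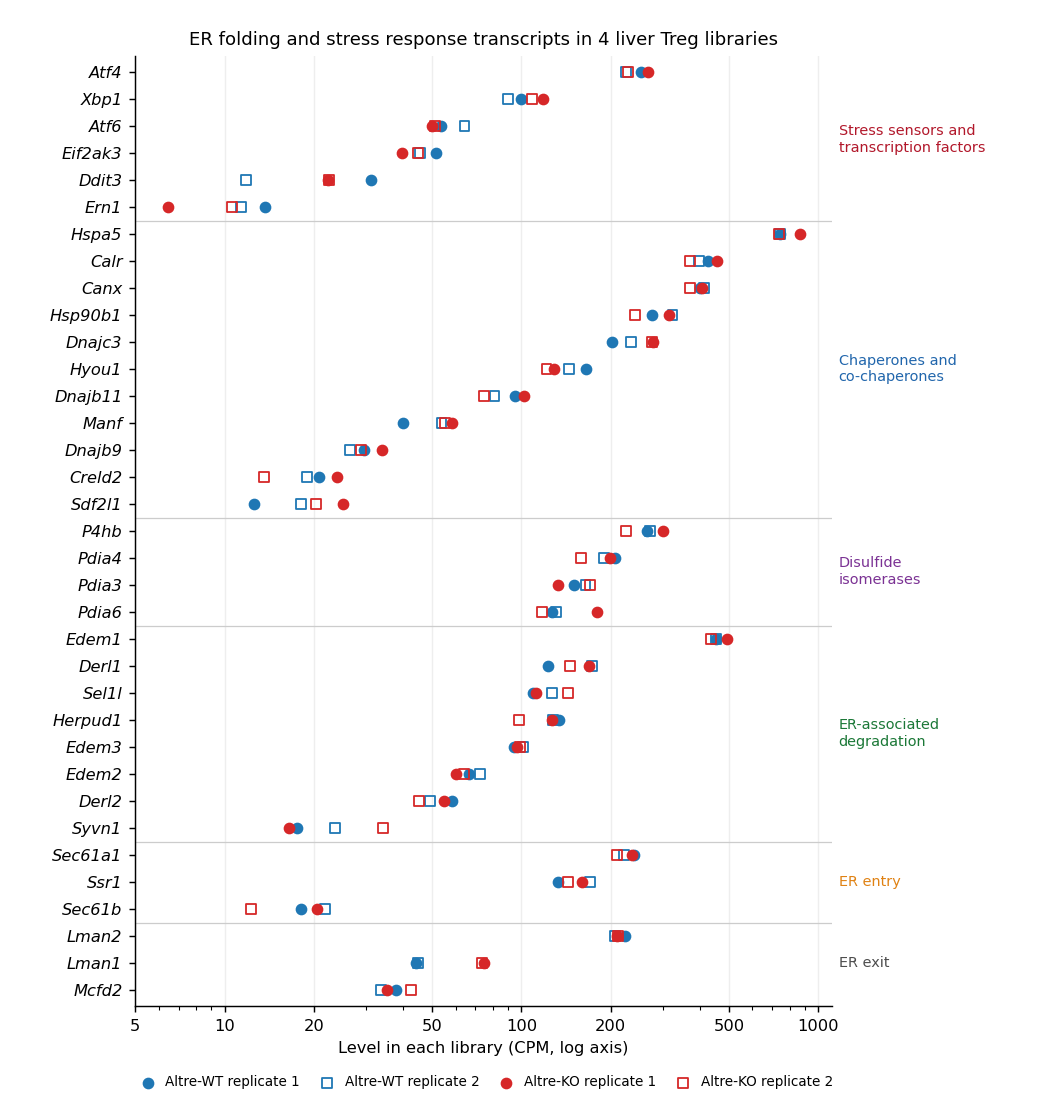
CPM (log axis) of each of the 35 transcripts in each library, 1 point per library, grouped by role and ordered by mean level. Altre-WT and Altre-KO points lie close together for most genes; the LMAN1 points form separate pairs at 44.3 and 45.0 CPM and at 74.7 and 73.7 CPM.

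Per kilobase of exon, 4 of the 5 highest levels belonged to genes whose proteins bind folding chains, HSPA5, CALR, P4HB and CANX. HSPA5 encodes BiP, the Hsp70 chaperone of the ER, and had the highest level, 183 CPM per kb over the 4 libraries. CALR, a lectin chaperone that holds glycoproteins, followed at 143, ATF4, the transcription factor of the Perk branch, at 103, P4HB, a disulfide isomerase, at 92.6, and CANX, the membrane-bound partner of CALR, at 84.5 CPM per kb. The median over the 35 was 19.3 CPM per kb. The sensor ERN1, which encodes Ire1, had the lowest level at 1.29 CPM per kb, 142-fold below HSPA5. The ligase SYVN1 at 4.73 and the sensor ATF6 at 5.93 CPM per kb were next. Exon lengths are those of the GENCODE M21 gene models, UTRs included, so a gene that uses a short form in these cells is placed too low.

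**Figure D2:**
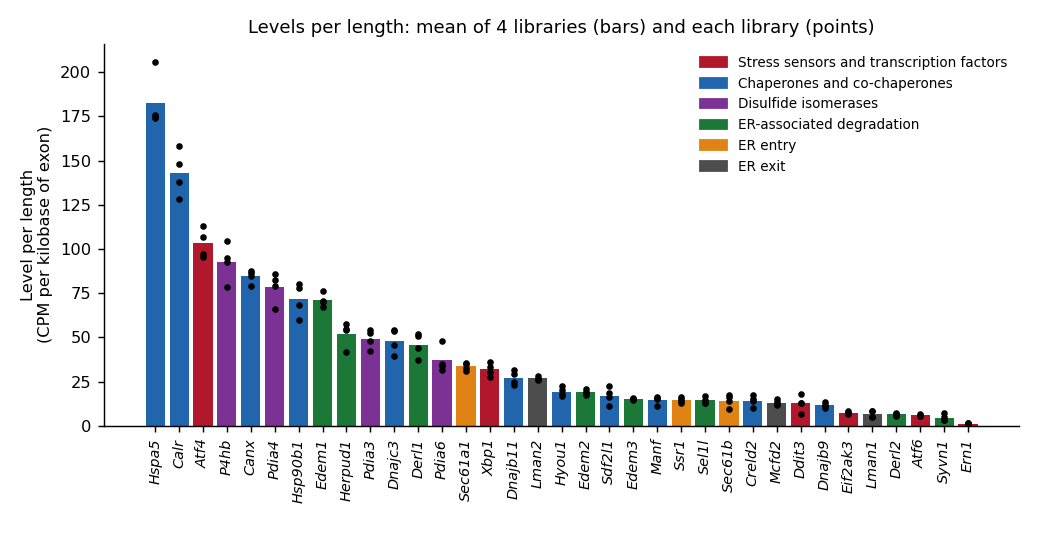
Level of each gene per kilobase of exon (CPM per kb, linear axis from 0), with bars for the mean over 4 libraries, points for the single libraries and colours for roles, ordered by level. HSPA5 (183 CPM per kb) and CALR (143) stand at the left, and ATF6, SYVN1 and ERN1 (1.29) at the right.

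For no transcript of the set did the difference between Altre-KO and Altre-WT Tregs pass the test. None of the 35 reached an adjusted p of 0.05 (limma on log2(CPM + 1), Benjamini-Hochberg over 10486 genes), and each adjusted p was 0.999. Over all genes tested, 4 passed (0.0381%). At an unadjusted p under 0.05 limma gave 2 of the 35 (5.71%), LMAN1 and DNAJC3, both higher in Altre-KO. Over all genes tested that share was 3.66%, with 1.44% higher and 2.22% lower. Both Altre-KO values lay on the same side of both Altre-WT values for 11 of the 35 (31.4%), against 30.8% of all genes. Of these 11, 5 were higher in Altre-KO (14.7% of all genes were) and 6 were lower (16.1% of all genes). In all, 16 of the 35 had a positive fitted difference and 19 a negative one, with a median of -0.0022 on the log2 scale against -0.013 over all genes tested.

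The intervals limit how large a difference these libraries leave room for. The 95% interval of the difference between genotypes lay within a 2-fold change for 31 of the 35 and within a 1.5-fold change for 18. The genes whose interval reached past 2-fold were LMAN1, SDF2L1, SEC61B and ERN1. The fitted difference was under 0.25 on the log2 scale for 27 of the 35. Limma's standard errors draw on 20.8 prior degrees of freedom from the variance trend over all genes and on only 2 from each gene's own libraries. In these bulk libraries, fewer cells that use a gene and less of its RNA per cell cannot be told apart. The authors' deposited table, from a test that it does not name, gave no member an adjusted p under 1, and its smallest unadjusted p among the 35 was 0.105, for LMAN1.

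**Figure D3:**
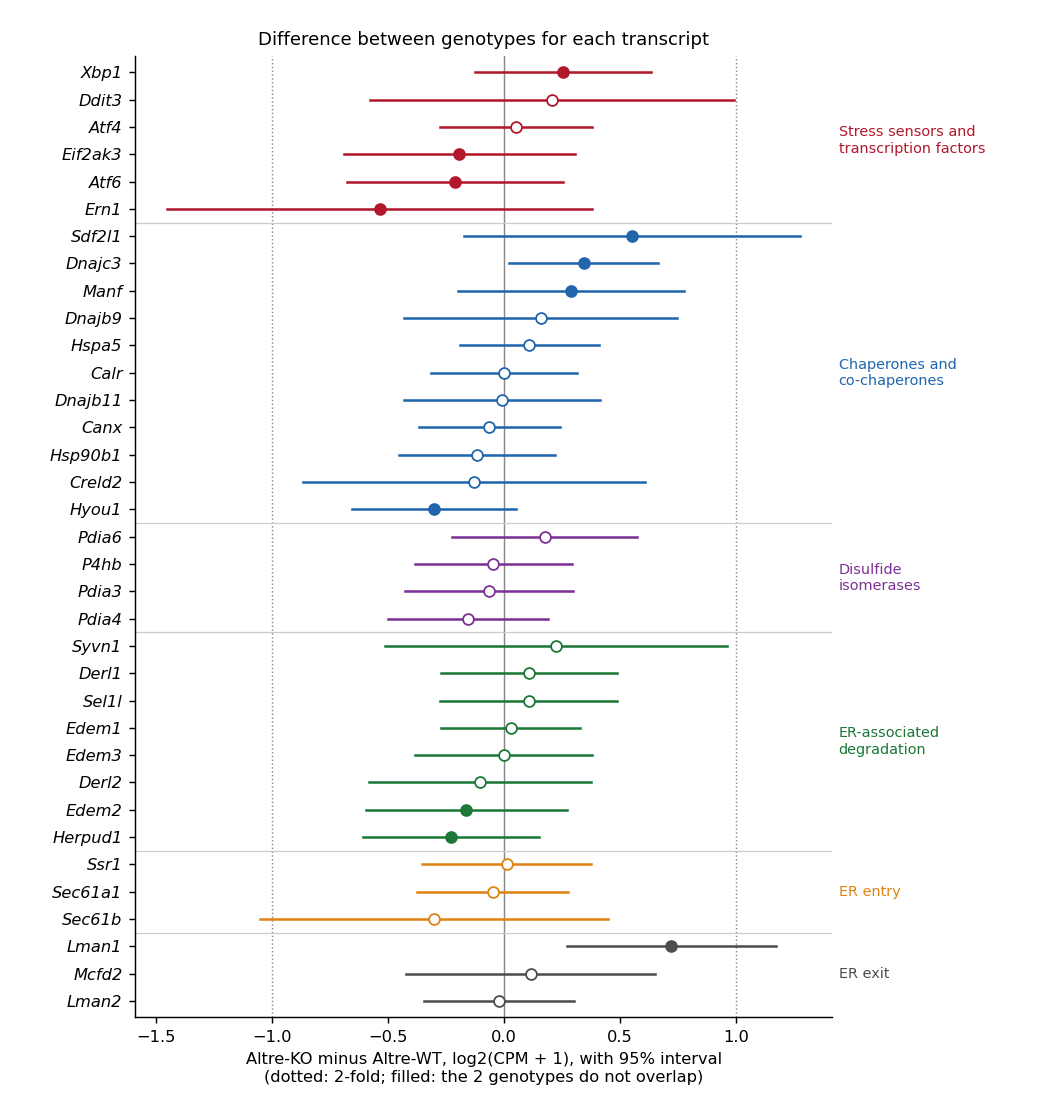
Altre-KO minus Altre-WT on the log2(CPM + 1) scale for each gene (points, filled where the genotypes do not overlap), with limma 95% intervals (bars) and dotted lines at a 2-fold change, grouped by role. LMAN1 and DNAJC3 are the genes whose interval lies wholly to the right of 0, and no interval lies wholly to the left.

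The cargo receptor LMAN1 showed the clearest separation of the genotypes. LMAN1 is a lectin that carries glycoproteins, among them blood clotting factors, from the ER towards the Golgi. It was at 44.3 and 45.0 CPM in Altre-WT and at 74.7 and 73.7 CPM in Altre-KO. The values within a genotype almost coincided, and both Altre-KO libraries lay above both Altre-WT libraries. The difference was 1.65-fold (95% interval 1.21 to 2.25, log2 difference 0.72, SE 0.22, limma unadjusted p = 0.00302, adjusted p = 0.999). Leaving out any single library kept it between 0.71 and 0.73. MCFD2, the soluble subunit that works with LMAN1, was at 37.7 and 33.6 CPM in Altre-WT and at 35.2 and 42.3 CPM in Altre-KO, and the genotypes overlapped (log2 difference 0.11, SE 0.26). LMAN2, a related lectin of the early secretory route, was at 222.6 and 206 CPM and at 210.3 and 212 CPM, with a log2 difference of -0.02 (SE 0.16). Only LMAN1 of these 3 cargo receptors separated the genotypes. Whether its difference exceeds that of MCFD2 or LMAN2 was not tested.

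Of the 11 chaperones and co-chaperones, 5 had a positive fitted difference and 6 a negative one, with a median of -0.0019. DNAJC3, a co-chaperone that hands clients to BiP and also inhibits Perk, was at 202 and 234.6 CPM in Altre-WT and at 277.7 and 275.2 CPM in Altre-KO. Both Altre-KO libraries were the higher ones, by 1.27-fold (95% interval 1.01 to 1.58, SE 0.16 on the log2 scale, limma unadjusted p = 0.0382, adjusted p = 0.999). Its log2 difference was 0.34, and 0.24 without Altre-WT replicate 1 (limma unadjusted p = 0.328). Its unadjusted limma p was also over 0.05 without Altre-WT replicate 2 (0.0638) and without Altre-KO replicate 1 (0.0531), and under it without Altre-KO replicate 2 (0.0453). SDF2L1, which works with the Hsp40 co-chaperone DNAJB11, was at 12.6 and 18.1 CPM in Altre-WT and at 25.1 and 20.3 CPM in Altre-KO. MANF, a small ER protein that binds BiP, was at 39.9 and 53.8 CPM and at 58.2 and 55.5 CPM. Both separated the genotypes upwards, with log2 differences of 0.55 (SE 0.35) and 0.29 (SE 0.23) that did not pass the test. Without Altre-WT replicate 1 these were 0.31 for SDF2L1 and 0.08 for MANF, and without Altre-WT replicate 2 they were 0.80 and 0.50.

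HYOU1 lay on the other side. It encodes the large Hsp70-related partner that releases nucleotide from BiP. HYOU1 was at 164.6 and 144.6 CPM in Altre-WT and at 128.3 and 121.5 CPM in Altre-KO. Both Altre-KO libraries were below both Altre-WT libraries, by a log2 difference of -0.30 (SE 0.17, limma unadjusted p = 0.0905). HSPA5 itself was at 740.4 and 743.6 CPM in Altre-WT and at 870.1 and 735.8 CPM in Altre-KO. Altre-KO replicate 1 alone was high, and the genotypes overlapped (log2 difference 0.11, 95% interval -0.19 to 0.41, and -0.01 without that library). CALR was at 426.5 and 396.4 CPM and at 456.2 and 369.6 CPM. CANX was at 398.6 and 411.5 CPM and at 405.4 and 370.5 CPM. For both lectin chaperones the Altre-KO values lay on either side of at least 1 Altre-WT value, with log2 differences of -0.0019 and -0.06 (SE 0.15 each). The other members, HSP90B1, DNAJB9, DNAJB11 and CRELD2, had differences from -0.13 to 0.16 and overlapped.

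Among the 6 sensors and transcription factors, the 3 sensors were lower in Altre-KO and XBP1 was higher, in each case without passing the test. ERN1, the nuclease that splices Xbp1 mRNA, was at 13.7 and 11.4 CPM in Altre-WT and at 6.43 and 10.6 CPM in Altre-KO. The difference, -0.54 on the log2 scale (SE 0.44), was -0.22 without Altre-KO replicate 1. EIF2AK3 encodes Perk, the kinase that slows translation by phosphorylating eIF2. It was at 51.4 and 45.4 CPM in Altre-WT and at 39.5 and 44.9 CPM in Altre-KO (log2 difference -0.19, SE 0.24). ATF6, whose protein is cut in the Golgi to release a transcription factor, was at 53.6 and 64.3 CPM and at 49.9 and 51.2 CPM (log2 difference -0.21, SE 0.22). For each sensor both Altre-KO values were the lower ones, as they were for 16.1% of all genes tested. The nearest values of the 2 genotypes were close for ERN1 (11.4 and 10.6 CPM) and for EIF2AK3 (45.4 and 44.9 CPM).

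XBP1, the transcription factor made from the mRNA that Ire1 splices, was at 99.5 and 90.0 CPM in Altre-WT and at 117.9 and 108.4 CPM in Altre-KO. Both Altre-KO libraries were the higher ones, by 1.19-fold (95% interval 0.917 to 1.55, limma unadjusted p = 0.179). The table gives a single value per gene, so spliced and unspliced XBP1 mRNA are summed in it. ATF4 was at 252 and 225 CPM and at 267 and 229 CPM, and the genotypes overlapped (log2 difference 0.05, SE 0.16). DDIT3 encodes Chop, a factor of prolonged stress. It was at 31.2 and 11.8 CPM in Altre-WT and at 22.4 CPM in both Altre-KO libraries. It had the widest spread of the set, 2.65-fold between the highest and lowest library, both of them Altre-WT. Its log2 difference was 0.21 (SE 0.38), and it was 0.87 without Altre-WT replicate 1 and -0.46 without Altre-WT replicate 2. The median difference of the 6 was -0.07, and 0.05 when genes under a mean of 20 CPM were left out, which drops ERN1.

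The 4 disulfide isomerases, which form and reshuffle disulfide bonds, overlapped between genotypes without exception. PDIA4 was at 206 and 190.0 CPM in Altre-WT and at 198.4 and 159 CPM in Altre-KO (log2 difference -0.16, SE 0.17, and 0.0035 without Altre-KO replicate 2). PDIA6 was at 126.9 and 131 CPM in Altre-WT and at 180.3 and 117.7 CPM in Altre-KO (log2 difference 0.17, SE 0.19, and -0.13 without Altre-KO replicate 1). In PDIA6 Altre-KO replicate 1 was the highest library and Altre-KO replicate 2 the lowest. P4HB was at 264.7 and 271 CPM in Altre-WT and at 299.1 and 224.8 CPM in Altre-KO, again with Altre-KO replicate 1 high and replicate 2 low. PDIA3, which assists CALR and CANX, had a log2 difference of -0.06 (SE 0.17).

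The 8 members of ER-associated degradation were split evenly, 4 with a positive and 4 with a negative difference, and the median was 0.01. HERPUD1, a scaffold of the degradation complex, was at 134 and 127.4 CPM in Altre-WT and at 126.8 and 97.8 CPM in Altre-KO. The genotypes did not overlap, but Altre-KO replicate 1 lay within 1 CPM of the nearer Altre-WT value (log2 difference -0.23, SE 0.18, and -0.04 without Altre-KO replicate 2). EDEM2, which trims mannose from misfolded glycoproteins, also separated downwards (log2 difference -0.16, SE 0.21). SYVN1, the ubiquitin ligase at the centre of the complex, was at 17.5 and 23.5 CPM in Altre-WT and at 16.5 and 34.3 CPM in Altre-KO. Its 2 Altre-KO libraries were the lowest and the highest of the 4. SEL1L, the adaptor of SYVN1, and DERL1, a channel component, each had a difference of 0.11 (SE 0.18 each). The mannosidases EDEM1 and EDEM3 had differences of 0.03 and -0.0022, and EDEM3 had the narrowest spread of the set, 1.07-fold between its highest and lowest library. DERL2 had a difference of -0.10 and was the only member with estimated reads that were not whole numbers.

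At the entry to the ER, the channel subunit SEC61B was at 18.1 and 21.9 CPM in Altre-WT and at 20.5 and 12.3 CPM in Altre-KO. Altre-KO replicate 2 was the low library (log2 difference -0.30, SE 0.36, and 0.04 without it). The pore subunit SEC61A1 and the channel-associated SSR1 had log2 differences of -0.05 and 0.01 (SE 0.16 and 0.18). None of the 3 entry genes separated the genotypes.

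The chaperone genes went in 1 direction between the 2 Altre-KO libraries. All 11 chaperones and co-chaperones were higher in Altre-KO replicate 1 than in replicate 2, by a median of 0.24 on the log2 scale and by 0.01 (DNAJC3) to 0.77 (CRELD2). In Altre-WT, 5 of the 11 were higher in replicate 1, with a median difference of -0.0063. Summed over the 11, the level was 2407 and 2452 CPM in Altre-WT and 2694 and 2307 CPM in Altre-KO, so that the Altre-KO libraries were the highest and the lowest. Over the whole set 24 of 35 (68.6%) were higher in Altre-KO replicate 1, against 56.0% of all genes tested. Of the 8 genes with an ERSE, 7 were higher in that library, by a median of 0.27 over the 8, and SYVN1 went the other way by 1.01. HSPA5, HSP90B1, CALR, CANX, CRELD2 and DNAJC3 are both in this group and among the chaperones, so the 2 counts largely share genes. Of the 21 genes with a promoter and no ERSE, 12 were higher in Altre-KO replicate 1, with a median of 0.15. The 3 entry genes were all higher there too, with a median of 0.17, and so were 3 of the 4 disulfide isomerases, with 0.37. Of the 6 sensors and transcription factors 2 were higher there, with a median of -0.02. The degradation genes had 4 of 8 higher (median 0.07) and the cargo receptors 1 of 3 (median -0.0092). Over all genes tested the median was 0.057. The comparison of the 2 Altre-KO libraries sets 1 library against 1, so it has no replicate check and no test. It was not planned, and the chaperones were singled out among the roles after these values were seen. Without Altre-KO replicate 2 the median difference of the chaperones between genotypes was 0.23, and without Altre-KO replicate 1 it was -0.13.

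**Figure D4:**
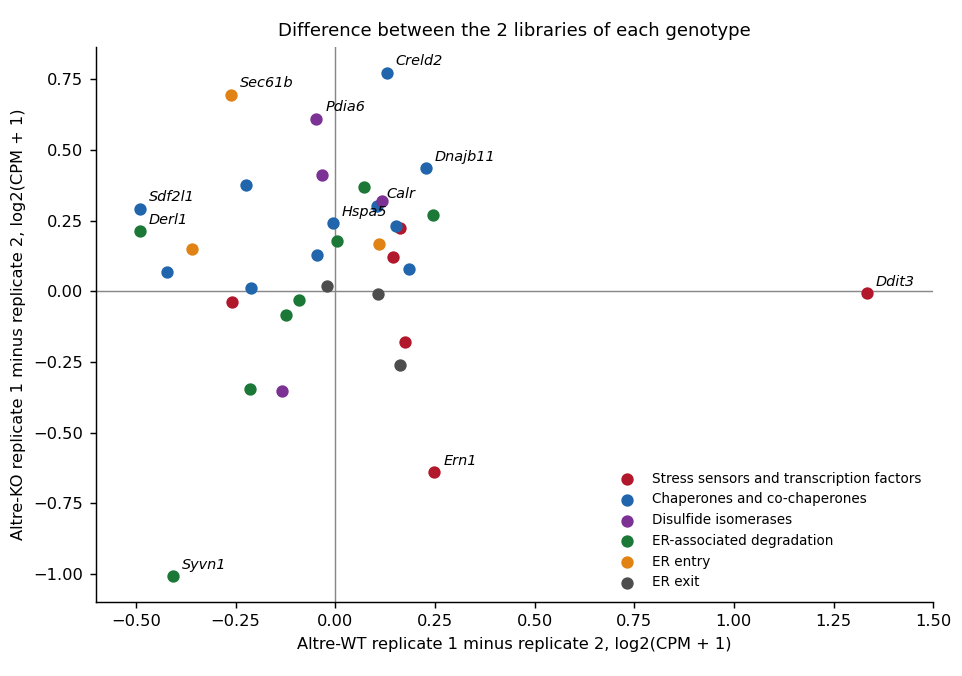
Replicate 1 minus replicate 2 on the log2(CPM + 1) scale, in Altre-WT (horizontal axis) and in Altre-KO (vertical axis), 1 point per gene, coloured by role. All 11 chaperone points lie above 0 on the Altre-KO axis (0.01 to 0.77) and on both sides of 0 on the Altre-WT axis, DDIT3 lies far to the right, and SYVN1 is the lowest point.

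Library measures and markers of other cells were set beside this. In Altre-KO the share of reads on listed genes was 32.8% in replicate 1 and 21.5% in replicate 2, and FOXP3 was at 79.5 and 162 CPM. Altre-KO replicate 1 had the fewest genes above 0, 14970, against 15818 in Altre-KO replicate 2 and 16153 and 16668 in Altre-WT. The 10 myeloid markers summed to 147.6 and 247.2 CPM in Altre-WT and to 238.5 and 130.4 CPM in Altre-KO, mostly LYZ2, with CLEC4F at 0 in 3 libraries. The 10 markers of B cells and plasma cells, which have a large ER, summed to 160.8 and 302.2 CPM in Altre-WT and to 214.9 and 191 CPM in Altre-KO. The myeloid sum and the B cell and plasma cell sum were both higher in replicate 1 of Altre-KO and in replicate 2 of Altre-WT. JCHAIN made up most of the B cell and plasma cell sum, while PAX5 was at most 0.42 CPM and TNFRSF17 at most 0.61 CPM. The 8 endothelial and stellate markers summed to between 176 and 226 CPM, mostly PECAM1, and 6 CD8 T cell and NK cell markers to between 15.1 and 23.0 CPM. The part of these measures in the levels of the folding genes was not tested.

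The ERSE did not sort the genes by the direction of their difference between genotypes. Of the 8 with the element, 4 were higher and 4 lower in Altre-KO, from -0.13 (CRELD2) to 0.34 (DNAJC3), with a median of 0.05. Of the 21 with a promoter and no ERSE, 9 were higher and 12 lower, with a median of -0.0093. HERPUD1 and DNAJB11, which hold the ERSE-II, had differences of -0.23 and -0.0093. HSPA5, the gene with the TGACGTG core, had a difference of 0.11.

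No gene of the wider pathway passed the test. In 7 further lists, 180 genes of the ER and of stress signalling outside the set, 152 genes were tested and none passed the adjusted threshold. At an unadjusted p under 0.05 limma gave 6 (3.95%), 2 higher and 4 lower in Altre-KO, against 3.66% of all genes. The genotypes did not overlap for 42 (27.6%), 22 of them higher, against 30.8% of all genes. In all, 78 were higher and 74 lower, with a median of 0.0023.

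N-glycosylation, the attachment and trimming of sugar chains on entering proteins, had a list median of 0.06, with 16 of 25 genes higher in Altre-KO. That median was 0.0334 when genes under a mean of 20 CPM were left out and -0.0295 without Altre-KO replicate 1. TUSC3, a subunit of the oligosaccharyltransferase, was at 20.8 and 30.7 CPM in Altre-WT and at 44.1 and 42.8 CPM in Altre-KO (log2 difference 0.76, SE 0.28, limma unadjusted p = 0.0125). Without Altre-WT replicate 1 its log2 difference was 0.49 (limma unadjusted p = 0.146). ALG2, a mannosyltransferase that builds the sugar chain, was at 21.3 and 26.9 CPM and at 30.6 and 45.7 CPM (log2 difference 0.62, SE 0.29, limma unadjusted p = 0.0459), with a difference of 0.34 without Altre-KO replicate 2 and 0.90 without Altre-KO replicate 1. DPM3, a subunit of the enzyme that supplies mannose, was at 13.1 and 11.4 CPM and at 21.7 and 17.8 CPM (log2 difference 0.65, SE 0.37). All 3 were named for their small p. Over the list, 5 of 25 genes had both Altre-KO libraries above both Altre-WT libraries, against 14.7% of all genes.

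In the list of ER exit and retrieval 14 genes were higher and 14 lower, with a median of -0.00059. SEC24A, a cargo-binding coat protein of the vesicles that leave the ER, was at 55.8 and 47.9 CPM in Altre-WT and at 30.3 and 32.2 CPM in Altre-KO. Both Altre-KO libraries were the lower ones (log2 difference -0.71, SE 0.25, limma unadjusted p = 0.00947, adjusted p = 0.999). SEC24B, its close relative, had a difference of -0.47 (SE 0.24) and ERGIC2, of the compartment between ER and Golgi, 0.36 (SE 0.20).

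Targets of ATF4 and the integrated stress response had a median of -0.06 over 21 tested genes, 10 higher and 11 lower, and 0.02 when genes under a mean of 20 CPM were left out. Of the 21, 5 had both Altre-KO libraries below both Altre-WT libraries and 0 had both above, against 16.1% and 14.7% of all genes. SLC7A1, a transporter of cationic amino acids, was at 75.5 and 75.7 CPM in Altre-WT and at 32.5 and 61.4 CPM in Altre-KO. Both Altre-KO libraries were lower (log2 difference -0.74, SE 0.25, limma unadjusted p = 0.00754). Without Altre-KO replicate 1 the difference was -0.30 (limma unadjusted p = 0.211). PHGDH, the entry enzyme of serine synthesis, was at 44.3 and 41.2 CPM and at 29.7 and 22.9 CPM (log2 difference -0.69, SE 0.27, limma unadjusted p = 0.0186). GARS, a tRNA synthetase, had a difference of 0.22 (SE 0.20).

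Other transducers and regulators of eIF2 numbered 17, 10 higher and 7 lower, with a median of 0.02. MBTPS1 encodes the Golgi protease that makes the first cut in Atf6. It was at 181.5 and 190.0 CPM in Altre-WT and at 141.8 and 145.6 CPM in Altre-KO, lower in both Altre-KO libraries (log2 difference -0.37, SE 0.16, limma unadjusted p = 0.0345). EIF2AK4, the kinase that senses amino acid shortage, had a difference of -0.38 (SE 0.27), and YOD1, a deubiquitinase, -0.39 (SE 0.28).

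The remaining lists covered folding, degradation and translocation beyond the set. Of 21 other folding and oxidation genes 13 were higher, with a median of 0.05, and the smallest p-values belonged to RCN2 (log2 difference 0.41, SE 0.25), TMX1 (0.29, SE 0.20) and VIMP (-0.38, SE 0.26). Of 21 other degradation genes 9 were higher, with a median of -0.02. They were led by FAM8A1, a partner of SYVN1, at 0.51 (SE 0.27), ERLEC1, a lectin, at -0.51 (SE 0.40), and UBXN4 at 0.22 (SE 0.17). Of 19 genes of translocation and signal peptide processing 6 were higher, with a median of -0.03. SRPR, of the receptor that brings ribosomes to the ER, had a difference of -0.31 (SE 0.24), SRP72 -0.19 (SE 0.18) and SSR3 -0.14 (SE 0.18).

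**Figure D5:**
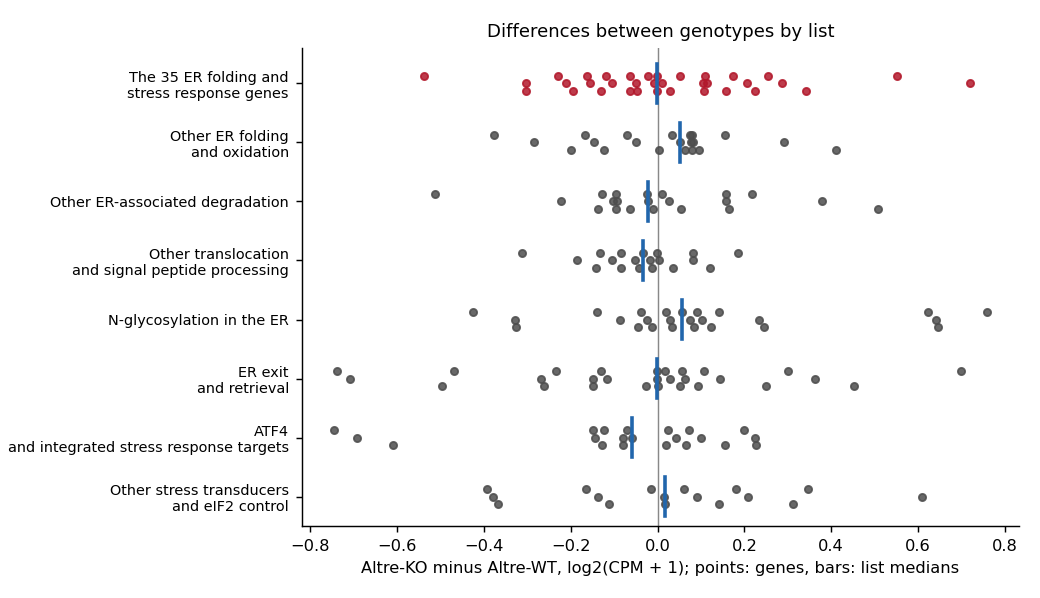
Altre-KO minus Altre-WT on the log2(CPM + 1) scale for each tested gene (points) of the set of 35 and of the 7 further lists, with the list medians (bars). Every median lies between -0.06 and 0.06, and the single genes spread to both sides of 0 in every list.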

How the data were processed

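RNA of liver Tregs was sequenced in 2 Altre-WT and 2 Altre-KO libraries. A SMARTER mRNA kit was used, per the labels' protocols. The submitters' processing notes name cutadapt, STAR, DESeq2 and build mm10. How reads were counted, with what annotation and whether by strand, is not given in the sources used here. Values come in RPM, as read from the table, with 0.0001 added by the authors, and in CPM, per the file headers. The deposited table also holds the authors' mean signal per genotype, a log2 ratio and a p-value with its adjusted value.

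The CPM were used. Reads were estimated from the RPM steps: 92.8% to 93.6% of values were whole within 0.02 of a read, so they were not treated as counts. Depth was 9710063 to 11570135 reads in all. The 2 libraries of a genotype differed beyond sampling noise (chi-square per degree of freedom 3.44 in Altre-WT and 10.3 in Altre-KO).

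Genes reaching 4.22 CPM, 10 estimated reads at the median depth, in at least 2 libraries were tested with limma 3.58.1 (R 4.3.3, variance trend, robust off) on log2(CPM + 1), adjusted over all genes. The log2 differences understate the change of low genes. The script was tested on simulated data. The genes and lists were chosen with earlier results of these data known. Values in every library are given for the 12 members with the smallest p, the 6 sensors and transcription factors and the 5 highest per kilobase, and the 3 smallest p name genes in each further list. Positions and exon lengths are from GENCODE M21, in which DDIT3 has 2 models (the longer was used). Exons of DDIT3, HSP90B1, SEC61A1, EIF2AK3, MANF, DERL2, SYVN1, PDIA6, PDIA3 and DNAJB9 overlap other genes on the opposite strand. Each such overlap covers 0.549% to 10.3% of the exon length. HSP90B1, MANF and PDIA4 overlap other genes on the same strand, by 0.397% to 3.30% each. The values of all these genes may include reads of both. Promoters are from RefSeq (GRCm38.p6); ATF6, DERL1, HYOU1, LMAN1, MANF and SEC61A1 had none matched by symbol. ERSE-II was added to the motifs after the others. Protein sequences were not analysed here. The alternatives were other scalings, filters, pseudocounts and tests, the replicate block and leaving out each library.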

Additional observations from a re-analysis of the deposited data

How the results depend on the processing

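None of the 35 genes passed an adjusted p of 0.05 under any of the 14 alternatives. LMAN1 kept an unadjusted p under 0.05 in all of them, from 0.00180 with no low-value filter to 0.0152 without Altre-WT replicate 1. Over all genes, 4 passed in the main fit, 2 with a pseudocount of 0.1 and 1 with robust moderation, and 6 to 16 when single libraries were left out. Leaving out a library gave 1 to 3 of the 35 at an unadjusted p under 0.05. Beside LMAN1 these were DNAJC3 and PDIA6 without Altre-KO replicate 2, HERPUD1 without Altre-KO replicate 1 and DDIT3 without Altre-WT replicate 1. It also gave 20 to 28 that did not overlap. That last count sets 1 library against 2, and fewer samples overlap less by construction. No share of all genes without overlap is given for these fits. The share of all genes at an unadjusted limma p under 0.05 also moved between them. It was largest without Altre-KO replicate 2, the fit that gave 3 of the 35. With 1 library left in a genotype, neither count can decide whether the 35 differ from other genes. Median-of-ratios size factors turned the split of all genes at an unadjusted p under 0.05 from 151 higher and 233 lower to 206 higher and 186 lower. The labels do not say if the replicate numbers pair the libraries. The correlation of same-numbered deviations was -0.01, which with only 2 pairs cannot decide it. With the replicate block 6 genes passed in all, and of the 35 the same 2 genes, LMAN1 and DNAJC3, had an unadjusted p under 0.05.

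Medians of lists moved as follows, and the cause was not tested. With a mean of at least 20 CPM the sensors and transcription factors had 0.0517 and the ATF4 targets 0.0190, both by leaving out low genes. The other stress transducers had 0.0460 with median-of-ratios size factors. Leaving out single libraries gave ranges of -0.18 to 0.0131 (sensors and transcription factors), -0.13 to 0.23 (chaperones), -0.0163 to 0.24 (cargo receptors), -0.0664 to 0.0912 (other folding), -0.0278 to 0.0433 (other degradation), -0.13 to 0.00929 (translocation), -0.0742 to 0.0220 (ER exit and retrieval), -0.15 to 0.0301 (ATF4 targets) and -0.0336 to 0.0306 (other stress transducers).

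Of the 35 genes 12 kept their sign under every alternative, and 23 changed it without a single library. Median-of-ratios size factors gave 0.0283 for CALR, 0.0206 for DNAJB11, 0.0278 for EDEM3 and 0.00788 for LMAN2. Upper-quartile scaling gave 0.0156 for CALR, 0.00802 for DNAJB11 and 0.0152 for EDEM3. Limma-voom on estimated reads gave 0.00664 for CALR and 0.0189 for DNAJB11. Ranges without single libraries were -0.0597 to 0.16 for ATF4, -0.46 to 0.87 for DDIT3, -0.0120 to 0.23 for HSPA5, -0.31 to 0.0688 for HSP90B1, -0.15 to 0.15 for CALR, -0.13 to 0.00125 for CANX, -0.23 to 0.21 for DNAJB11 and -0.52 to 0.26 for CRELD2. They were -0.25 to 0.16 for P4HB, -0.24 to 0.11 for PDIA3, -0.32 to 0.00354 for PDIA4, -0.13 to 0.48 for PDIA6, -0.0680 to 0.28 for SEL1L, -0.28 to 0.73 for SYVN1, -0.14 to 0.35 for DERL1, -0.24 to 0.0300 for DERL2, -0.0606 to 0.12 for EDEM1 and -0.0481 to 0.0437 for EDEM3. They were -0.13 to 0.0332 for SEC61A1, -0.65 to 0.0437 for SEC61B, -0.17 to 0.19 for SSR1, -0.0163 to 0.24 for MCFD2, -0.0764 to 0.0318 for LMAN2 and -0.33 to 0.0444 for SSR3 of the translocation list. Some ranges kept their sign but had an end over 1.5 times larger or smaller than the main difference. These were -0.86 to -0.22 for ERN1, -0.28 to -0.10 for EIF2AK3, -0.34 to -0.08 for ATF6 and 0.04 to 0.27 for DNAJB9. They were also 0.31 to 0.80 for SDF2L1, 0.08 to 0.50 for MANF, -0.41 to -0.04 for HERPUD1 and -0.22 to -0.10 for EDEM2. Within that bound were the ranges of HYOU1 (-0.40 to -0.21), XBP1 (0.18 to 0.33) and DNAJC3 (0.24 to 0.45).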

Other observations

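Of the 30 targets of ATF4 and the integrated stress response, 9 stayed below the filter on low values and were left out of the main test. ASNS, asparagine synthetase, was at 16 and 8 estimated reads (8.75 and 3.36 CPM) in Altre-WT and at 4 and 2 reads (1.22 and 0.85 CPM) in Altre-KO. TRIB3, a pseudokinase induced in stress, had 1 and 4 reads in Altre-WT and 12 and 5 in Altre-KO, and ATF3, a transcription factor of acute stress, had 7 and 6 reads and 5 and 1 reads. PYCR1, an enzyme of proline synthesis, had 5 and 4 reads and 1 and 0 reads. CHAC1, which degrades glutathione, was at 0 in all 4 libraries. With no low-value filter limma could test 8 of the 9. None of them passed the adjusted threshold, and the smallest adjusted p was 0.925. ASNS (log2 difference -1.69, limma unadjusted p = 0.0257) and PYCR1 (log2 difference -1.47, limma unadjusted p = 0.0251) were the 2 of them at an unadjusted p under 0.05. In that limma fit 5.1% of 19412 genes were at an unadjusted p under 0.05, 228 higher and 762 lower in Altre-KO. FKBP11 and DERL3 of the further lists also stayed below the filter. FKBP11 was at 0 in all 4 libraries, and DERL3 had 2 and 13 reads in Altre-WT and 6 and 9 in Altre-KO.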
